A study of Mus musculus with 16 samples.

Results

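Solute carriers are membrane proteins that move amino acids, sugars, ions, vitamins, nucleotides and metals across the plasma membrane or across the membranes of organelles. Their genes are named by family number, and the members of a family share ancestry and usually a kind of substrate. Some exchange one solute for another, some are driven by sodium or protons, and some only let a solute run down its gradient. Embryonic stem cells (ESCs), the cultured pluripotent cells of the early embryo, divide fast and take up amino acids, nucleosides and vitamins through such carriers.

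The genes described here carry a symbol of the form Slc plus a family number and were expressed in ESCs. They were chosen by measured values, namely detection in 4 or more of the 16 arrays. A probe counts as detected where its detection p-value, the chance of so bright a signal among the array's own negative controls, is under 0.01. The array held 652 probes for 356 such symbols. Of these genes 9 were set aside by name, among them carriers of iron, glucose and lactate, and 204 did not reach the detection limit. That left 143 genes with 202 probes, of 8707 named genes past the same limit. Being detected is therefore what selected them and is not a result. Of the 143 genes 113 were detected on all 16 arrays and 30 on 4 to 15 of them, and 6 were below background on every null array. Just inside the limit, 7 probes were detected on exactly 4 arrays, with mean scanner signals of 80.5 to 98.1 in the 3 groups. Another 7 probes lay just outside it with 3 arrays detected and signals of 66.8 to 94.9.

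Total RNA was hybridized to Illumina Mouse WG-6 v2 arrays from 6 wild-type (Prdm4+/+), 4 Prdm4 null (Prdm4∆ZF/∆ZF) and 6 Prdm4-EGFP samples, all of strain 129/Sv and given as separate clones. Prdm4 is a zinc finger protein that binds DNA. In the null cells both alleles lack the exons for part of the PR/SET domain and for zinc fingers next to it, and a shortened transcript remains. The null clones came from 3 clones of the CCE line of ESCs in which 1 allele had been deleted and the other was then targeted, and the labels do not say which arrays share such a parent clone. Prdm4-EGFP cells were stably transfected with full-length Prdm4 joined to a green fluorescent protein, driven by the chicken beta-actin promoter and selected with puromycin. The methods name both CCE and null ESCs as recipients of such constructs, and the labels do not give the recipient line of these 6 arrays. The paper's Western blots show full-length Prdm4-EGFP in wild-type ESCs, and its text also describes null ESCs that express it. The p-values measure only the spread between these arrays, part of which may be technical.

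Between 13894 and 14905 probes per array (30.7 to 32.9%) were detected, and 175 to 188 of the 202 solute carrier probes. Values are log2 normalized intensities, and a difference of 1 on this scale is a doubling. Within a group the arrays of a solute carrier gene spanned a median of 0.46 in wild-type, 0.25 in null and 0.39 in Prdm4-EGFP. The targeted gene was lower in the null arrays, with a log2 change of -0.63 for its brighter probe (SE 0.07, adjusted p = 6.0e-07), and its dimmer probe was below background on every null array and at least 3.19-fold lower. On the Prdm4-EGFP arrays these probes differed from wild-type by -0.05 and -0.01 and were not called, and the sources used here do not say whether they reach the transgene's transcript. All 10 pluripotent cell markers examined were detected in every group, of which Dnmt3l (0.34), Utf1 (0.28) and Sox2 (0.29) were higher and Nanog lower in null (-0.85, SE 0.09), with summed scanner signals of 59163 to 69966 in wild-type, 62342 to 73113 in null and 59103 to 65555 in Prdm4-EGFP arrays. Of 10 feeder fibroblast markers 8 were undetected in each group. Of the 2 tested, Thy1 was detected on every array and was lower in null (-1.79, SE 0.11), and Col5a1 was not called there (0.11, SE 0.08). The summed scanner signal of the 10 was 1040 to 1448 in wild-type, 846 to 948 in null and 1143 to 1361 in Prdm4-EGFP arrays. Over all tested genes 22.9% were higher and 21.2% lower in null. Of 12 primitive endoderm markers 6 were tested, of which 4 were higher and 1 lower in null. Dab2 (2.00, SE 0.33), Gata6 (1.35, SE 0.32), Amn (0.96) and Col4a1 (0.91) were higher, Sox7 (-0.42) was lower and Lama1 (-0.21) was not called. Gata6 was detected on 1 of 6 wild-type arrays, and Dab2 (SD 0.86) and Gata6 (SD 0.78) were uneven within Prdm4-EGFP. The summed signals of the 12 were 1842 to 2731 in wild-type, 2614 to 3240 in null and 2085 to 3358 in Prdm4-EGFP arrays. The part of such cells in the values below was not tested, and in bulk RNA fewer cells of a type and less RNA per cell cannot be told apart.

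Prdm4 binds DNA at a motif in several parts that ends in CTNGAAAC, with N for any base, and this end was searched on both strands of 300-base promoter windows. The windows run from 250 bases before to 50 after a transcription start, are taken from RefSeq (GRCm38.p6) and were matched by symbol for 116 of the 143 genes, giving 155 windows. CTNGAAAC stood in 3 of them (1.94%), against 3.83% of all 32851 windows and 3.67% of the windows of tested genes. The shorter core GAAAC, which every CTNGAAAC contains, stood in 38.1% of the solute carrier windows, against 45.1 and 40.6%. The 3 windows with the longer form are printed from 5′ to 3′ on the strand of the gene, with the match in capitals, because their genes fell, rose and were not called in the null arrays. A match is a description of these letters and not a binding site. Slc51a is at chr16:32487830-32488129 on the minus strand, Slc44a2 at chr9:21320469-21320768 on the plus strand and Slc25a33 at chr4:149774218-149774517 on the minus strand. The match reads forward in Slc51a, from position -246 relative to the start, and in Slc44a2, from -89, and lies on the opposite strand in Slc25a33, where it begins at -213.
Slc51a: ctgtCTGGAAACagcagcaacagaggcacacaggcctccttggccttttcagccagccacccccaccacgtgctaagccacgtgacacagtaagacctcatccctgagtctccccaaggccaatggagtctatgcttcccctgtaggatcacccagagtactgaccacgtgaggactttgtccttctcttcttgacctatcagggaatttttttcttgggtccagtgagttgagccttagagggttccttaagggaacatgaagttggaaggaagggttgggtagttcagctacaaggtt
Slc44a2: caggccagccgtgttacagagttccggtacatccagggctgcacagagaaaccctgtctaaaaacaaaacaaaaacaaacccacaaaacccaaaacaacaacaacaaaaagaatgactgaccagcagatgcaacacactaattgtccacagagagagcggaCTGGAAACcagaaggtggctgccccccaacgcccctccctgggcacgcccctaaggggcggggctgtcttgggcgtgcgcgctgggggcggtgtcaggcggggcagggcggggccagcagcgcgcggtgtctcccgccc
Slc25a33: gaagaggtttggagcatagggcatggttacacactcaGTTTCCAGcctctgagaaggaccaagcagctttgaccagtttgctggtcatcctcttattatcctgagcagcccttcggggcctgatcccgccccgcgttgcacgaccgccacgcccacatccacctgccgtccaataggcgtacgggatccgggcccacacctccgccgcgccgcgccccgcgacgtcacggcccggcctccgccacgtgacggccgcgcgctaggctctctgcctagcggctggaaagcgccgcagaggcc

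The comparison of null with wild-type arrays asks which carriers ESCs express differently without a working Prdm4. Of the 143 genes 35 were higher and 32 lower in null (limma with Benjamini-Hochberg adjustment over all probes tested, threshold 0.05). That was 46.9% of the solute carriers, against 44.2% of all tested genes. By direction, 24.5% were higher, where all genes gave 22.9%, and 22.4% were lower, where all genes gave 21.2%. The median log2 fold was 0.02 over the carriers and 0.02 over all genes. The share of carriers called thus lay near that of the array as a whole, and the description below is of which carriers moved and how far. Most moves were moderate. Among the 35 higher genes 3 exceeded 1 on the log2 scale and 21 stayed under 0.5. Of the 32 lower genes 27 were detected on at least 1 array of both groups, and of these 4 exceeded 1 and 13 stayed under 0.5. The other 5 were below background on every null array, so that only a lower bound of their fall is known. On 57 genes (39.9%, against 32.4% of all genes) no null array overlapped a wild-type array.

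**Figure D1:**
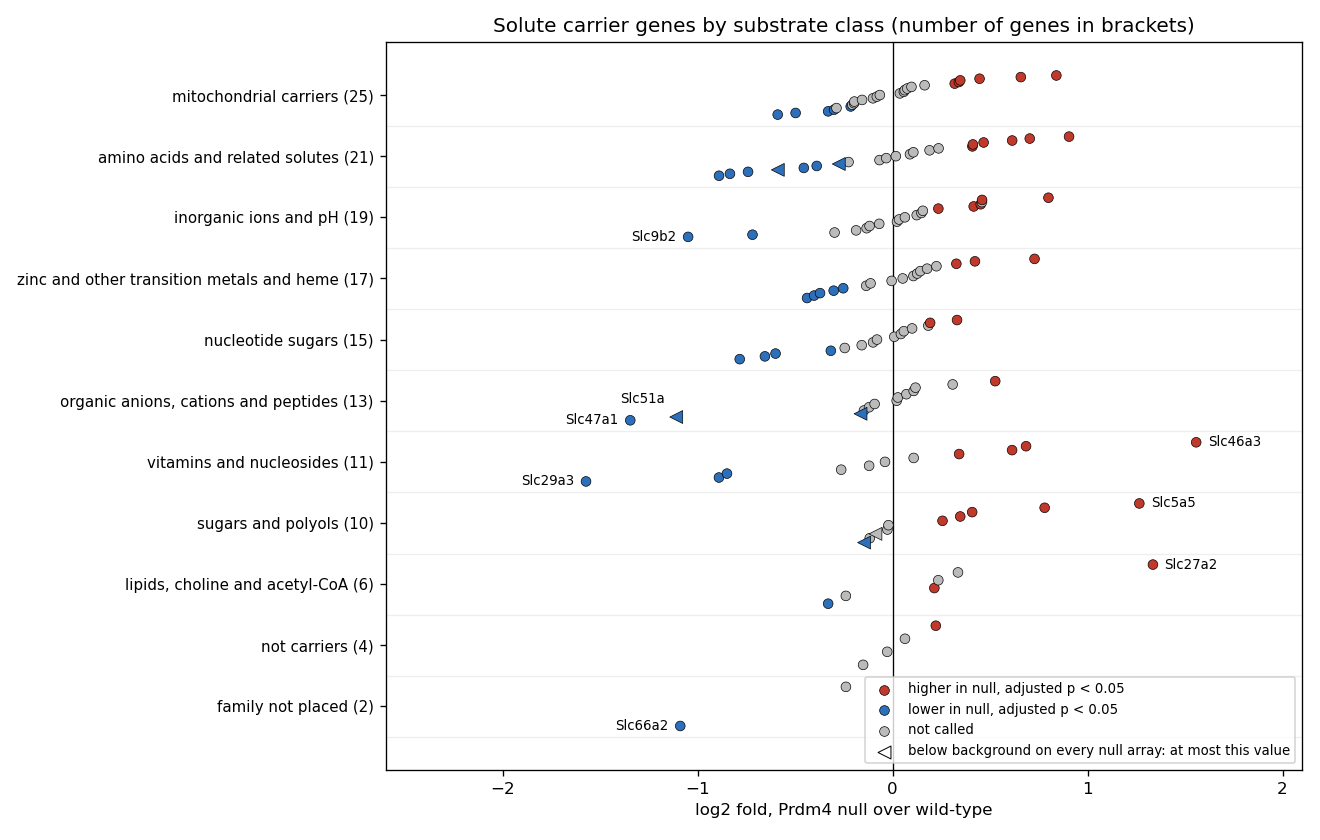
Each point is 1 gene, placed by its log2 fold between Prdm4 null (n = 4) and wild-type (n = 6) arrays on the horizontal axis and by the substrate class of its family on the vertical axis, with red for higher, blue for lower and grey for not called. Triangles mark genes below background on every null array and show the least fall the data allow, and the measured folds run from -1.57 for Slc29a3 to 1.56 for Slc46a3.

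Carriers of amino acids and related solutes held 21 expressed genes of 58 on the array, of which 6 were higher and 7 lower in null. Slc38a2, a sodium-coupled carrier of neutral amino acids that cells induce when amino acids run short, rose most in this class. It ran from 10.78 to 11.12 (median 11.06) on the wild-type arrays and stood at 11.95, 11.92, 11.89 and 11.88 on the null arrays. All null arrays lay above all wild-type arrays, and the log2 fold was 0.91 (SE 0.07, adjusted p = 2.1e-08). Of its 3 probes 2 were called higher, while the dimmest gave 0.01 and was not called. Slc43a1, a carrier of large neutral amino acids, rose by 0.70 (SE 0.12, adjusted p = 0.00013). Slc7a3, a carrier of cationic amino acids, ran from 12.03 to 12.27 (median 12.10) on the wild-type arrays and stood at 12.55, 12.55, 12.51 and 12.52 on the null arrays. Its null arrays were closely grouped and all higher, by 0.41 (SE 0.06, adjusted p = 2.6e-05), whereas a dimmer probe that was detected on 7 of 16 arrays gave 0.18 and was not called. Slc7a7 (0.47), the light chain of a carrier that exchanges cationic for neutral amino acids, and Slc38a7 (0.41) were higher as well.

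The amino acid carriers that fell included Slc1a1 and Slc1a3, which take up glutamate with sodium, while their relatives Slc1a6 and Slc1a7 were not called. Slc1a1 ran from 5.62 to 6.53 (median 6.23) on the wild-type arrays and stood at 5.24, 5.00, 5.06 and 4.80 on the null arrays. It passed the detection limit through the wild-type arrays, with 2 of 6 Prdm4-EGFP arrays detected, so a difference was built into its choice. As a description, it was below background on every null array and at least 1.50-fold lower there. Such a bound sets the mean of the brighter group against the lowest detected signal of each dim array, or the dim probe's own value where that is higher. An adjusted p printed beside a bound is that of the fitted fold, which uses the values below background, and does not test the bound. Slc1a3 changed by -0.74 (SE 0.10, adjusted p = 1.5e-05). Slc32a1, which loads GABA and glycine into vesicles in neurons, was likewise below background on every null array and at least 1.21-fold lower, with 4 of 6 wild-type arrays detected. It passed the limit through the wild-type and Prdm4-EGFP arrays, so its fall is a description too. Slc38a5, a glutamine carrier, ran from 6.27 to 7.33 (median 6.86) on the wild-type arrays and stood at 6.11, 6.03, 5.66 and 5.83 on the null arrays. Its wild-type arrays were spread over 1.06 log2 units, yet none reached down to the null arrays, and the change was -0.89 (SE 0.17, adjusted p = 0.00038).

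Slc6a8, the creatine carrier, had higher signals on every wild-type array than on any null array. It ran from 10.32 to 10.79 (median 10.50) on the wild-type arrays, stood at 9.68, 9.65, 9.62 and 9.76 on the null arrays and changed by -0.83 (SE 0.09, adjusted p = 6.5e-07). Slc7a4 fell too (-0.39). The direction of Slc6a6 and Slc6a15 was not settled, because their probes were called in opposite directions. For Slc6a6, the taurine carrier, the brighter probe changed by -0.46 (SE 0.10, adjusted p = 0.0011) and the dimmer probe by 0.81 (SE 0.12, adjusted p = 3e-05), the latter detected on 10 of 16 arrays. The arrays of the brighter probe overlapped, and it was not called within array numbers 1 and 2 (adjusted p = 0.2). For Slc6a15, a carrier of branched-chain amino acids, the brighter probe changed by 0.61 (SE 0.08, adjusted p = 6.2e-06) and the dimmer by -0.40 (SE 0.14, adjusted p = 0.029). The counts above use the brighter probe of each. The 8 others, Slc38a10, Slc38a4, Slc7a6, Slc1a6, Slc1a7, Slc38a9, Slc38a1 and Slc1a4, lay between -0.23 and 0.24 and were not called.

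**Figure D2:**
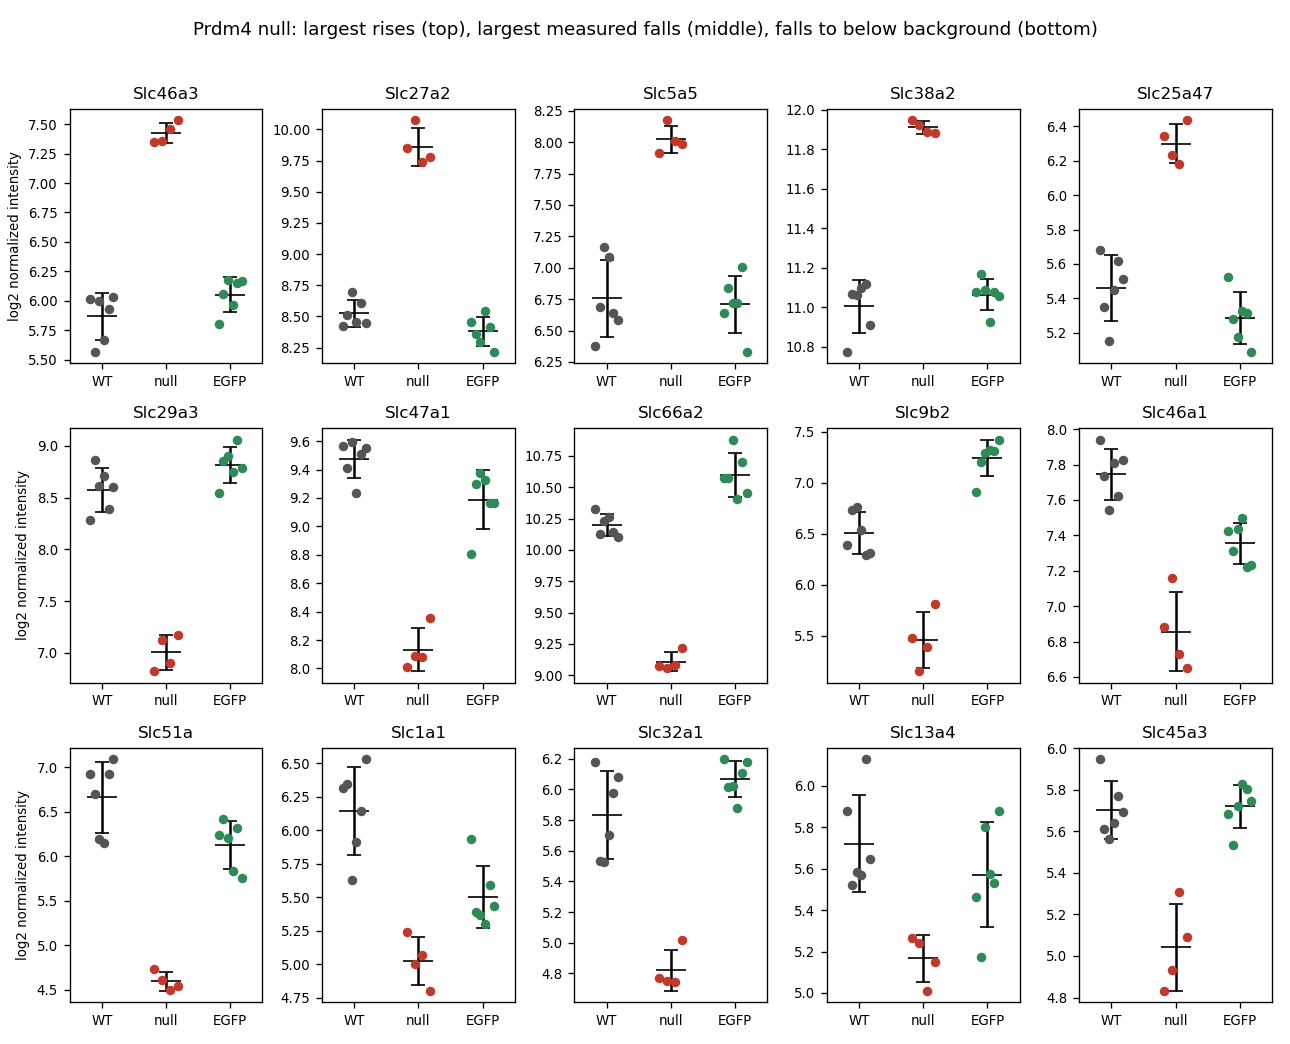
Points are arrays of the wild-type (WT, n = 6), Prdm4 null (n = 4) and Prdm4-EGFP (n = 6) groups, bars are mean and SD, and the vertical axes give log2 normalized intensity on a separate scale for each gene. The top row holds the 5 largest rises and the middle row the 5 largest falls among genes detected on at least 1 array of both groups. Of these, Slc25a47 was detected on 1 of 6 wild-type arrays and Slc9b2 on 1 of 4 null arrays. The bottom row holds the 5 genes called lower that were below background on every null array, and in each panel no null array overlaps a wild-type array.

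Carriers of vitamins and nucleosides held 11 expressed genes of 19 on the array, with 4 higher and 3 lower in null, and both the largest rise of any carrier and a fall of about that size. Slc46a3, a lysosomal carrier, ran from 5.57 to 6.04 (median 5.96) on the wild-type arrays and stood at 7.35, 7.36, 7.46 and 7.53 on the null arrays. The gap between the groups was wide, with a log2 fold of 1.56 (SE 0.10, adjusted p = 1.8e-09), a 2.94-fold rise. Its relative Slc46a1, the proton-coupled folate carrier, moved the other way. It ran from 7.54 to 7.94 (median 7.77) on the wild-type arrays, stood at 6.88, 7.16, 6.73 and 6.65 on the null arrays and changed by -0.89 (SE 0.10, adjusted p = 1.2e-06). Slc29a3, a nucleoside carrier of lysosomes and mitochondria, ran from 8.28 to 8.87 (median 8.61) on the wild-type arrays and stood at 6.82, 7.13, 6.90 and 7.17 on the null arrays, a change of -1.57 (SE 0.11, adjusted p = 7.7e-09) to 0.336 of the wild-type level.

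Among the other vitamin carriers, Slc52a3, which takes up riboflavin, fell and Slc23a2, which takes up vitamin C with sodium, rose. Slc52a3 ran from 8.20 to 8.46 (median 8.37) on the wild-type arrays and stood at 7.48, 7.53, 7.49 and 7.52 on the null arrays, so that the null arrays lay within 0.049 of one another and well under the others (-0.85, SE 0.08, adjusted p = 2.8e-07). Slc23a2 changed by 0.68 (SE 0.13, adjusted p = 0.00034). The nucleoside carriers Slc28a1 (0.61, SE 0.07) and Slc29a1 (0.34, SE 0.09) were higher, but the arrays of Slc29a1 overlapped and it was not called within array numbers 3 and above (0.19, adjusted p = 0.27) or without wild-type arrays 1, 5 and 6 (0.25, adjusted p = 0.051). The 4 not called were Slc29a2, Slc29a4, Slc19a1 and Slc19a2, between -0.26 and 0.11. Slc19a1, the reduced folate carrier, was among them at -0.04 (SE 0.07, adjusted p = 0.72).

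Of 68 genes for carriers of organic anions, cations and peptides 13 were expressed, with 1 higher and 3 lower in null. Slc51a, a subunit of the organic solute transporter that passes bile acids and steroids out of epithelial cells, was detected on every wild-type and on no null array. It ran from 6.15 to 7.09 (median 6.81) on the wild-type arrays and stood at 4.74, 4.61, 4.50 and 4.54 on the null arrays. The groups were far apart, and the gene was at least 2.16-fold lower in null. As it passed the limit through the wild-type and Prdm4-EGFP arrays, that fall is a description. Its wild-type arrays divided into 4 at 6.71 or more and 2 at 6.20 or less. Slc47a1, which extrudes organic cations in exchange for protons, ran from 9.24 to 9.59 (median 9.53) on the wild-type arrays and stood at 8.01, 8.09, 8.08 and 8.35 on the null arrays. Its change was -1.35 (SE 0.10, adjusted p = 1.8e-08), and both other probes for it were lower by like amounts (-1.29 and -1.26).

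Slc13a4, a sulfate carrier, was below background on every null array and at least 1.12-fold lower, although 3 of 6 wild-type arrays were below background as well. It passed the limit through the wild-type and Prdm4-EGFP arrays, so a difference was built into its choice and the fall is a description. Slc17a9, which loads nucleotides into vesicles, was higher by 0.53 (SE 0.14, adjusted p = 0.0051). The 9 not called were Slc17a5, Slc16a13, Slc10a3, Slc22a7, Slc10a7, Slc16a10, Slc15a4, Slc22a5 and Slc16a6, between -0.15 and 0.31. For Slc22a5, the carnitine carrier, the brightest of 3 probes gave 0.12 and another gave 0.43 and was called.

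Families that carry mostly sugars and polyols held 10 expressed genes of 32, with 5 higher and 1 lower in null. Slc5a5, the sodium-iodide symporter of the thyroid, which sits here by its family number, ran from 6.38 to 7.16 (median 6.66) on the wild-type arrays and stood at 7.92, 8.18, 8.01 and 7.98 on the null arrays. The lowest null array stood well above the highest wild-type array, and the log2 fold was 1.27 (SE 0.14, adjusted p = 1.3e-06). Slc37a1, which carries glucose 6-phosphate into the endoplasmic reticulum, rose by 0.78 (SE 0.11, adjusted p = 2.3e-05). Slc45a4 (0.41), the intracellular hexose carrier Slc2a8 (0.35) and Slc37a3 (0.26) were higher by smaller amounts. Slc45a3 was below background on every null array and detected on every wild-type array, at least 1.11-fold lower. As it passed the limit through the wild-type and Prdm4-EGFP arrays, that fall is a description. Not called were Slc5a4b, Slc5a11, Slc5a6 and Slc50a1, between -0.24 and -0.02.

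Mitochondrial carriers, family Slc25, were the largest class, with 25 expressed genes of 45, and their folds stayed within -0.59 and 0.84. In null 6 were higher and 5 lower. Slc25a47 ran from 5.15 to 5.68 (median 5.48) on the wild-type arrays with 1 of 6 detected, and stood at 6.35, 6.23, 6.18 and 6.44 on the null arrays. As it passed the detection limit through the null arrays, with none detected in Prdm4-EGFP, a difference was built into its choice, and the fitted fold of 0.84 (SE 0.10) is a description. Slc25a20, which brings acylcarnitines in for fatty acid oxidation, rose by 0.66 (SE 0.10, adjusted p = 4.4e-05), and the dicarboxylate carrier Slc25a10 by 0.45 with overlapping arrays. Slc25a53 (0.34) and the peroxisomal Slc25a17 (0.32) were higher by less. Slc25a45 (0.35) likewise passed the limit mostly through null, with 3 of 4 null, 1 of 6 wild-type and 0 of 6 Prdm4-EGFP arrays detected. Its null and wild-type arrays overlapped.

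Of the 5 mitochondrial carriers that fell, Slc25a16 moved furthest, running from 8.12 to 8.43 (median 8.29) on the wild-type arrays and at 7.76, 7.76, 7.62 and 7.66 on the null arrays. All null arrays lay under all wild-type arrays (-0.59, SE 0.07, adjusted p = 2.6e-06). Slc25a37, the iron carrier mitoferrin, changed by -0.50 (SE 0.09, adjusted p = 0.00015). The others were Slc25a11 (-0.33), which exchanges oxoglutarate for malate, Slc25a12 (-0.30), which exchanges aspartate for glutamate, and Slc25a25 (-0.21), a carrier of ATP-magnesium and phosphate. The arrays of Slc25a12 and Slc25a25 overlapped. The 14 not called, Slc25a44, Slc25a14, Slc25a42, Slc25a39, Slc25a33, Slc25a26, Slc25a32, Slc25a15, Slc25a1, Slc25a36, Slc25a28, Slc25a38, Slc25a3 and Slc25a5, lay between -0.29 and 0.16. They included the citrate carrier Slc25a1, at 0.04 (SE 0.10, adjusted p = 0.79), the phosphate carrier Slc25a3 and the ADP/ATP carrier Slc25a5.

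Carriers of inorganic ions held 19 expressed genes of 53, with 5 higher and 2 lower in null. Slc12a8, of the family of cation-chloride cotransporters, ran from 5.73 to 6.35 (median 5.98) on the wild-type arrays and stood at 6.86, 6.89, 6.76 and 6.75 on the null arrays, an increase of 0.80 (SE 0.11, adjusted p = 1.7e-05) without overlap. From the same family Slc12a2, the sodium-potassium-chloride cotransporter, rose by 0.45 (SE 0.09, adjusted p = 0.0004) and the potassium-chloride cotransporter Slc12a7 by 0.46 with overlap, while Slc12a1, Slc12a3 and Slc12a9 were not called. The bicarbonate carrier Slc4a8 (0.42, with overlap) and the Golgi sodium-proton exchanger Slc9a8 (0.23) were higher too. Slc9b2, another sodium-proton exchanger, ran from 6.29 to 6.76 (median 6.46) on the wild-type arrays and stood at 5.48, 5.15, 5.38 and 5.81 on the null arrays. It was detected on 1 of 4 null arrays and changed by -1.05 (SE 0.13, adjusted p = 3.3e-06). Its other probe was below background on every null array and at least 1.18-fold lower. Slc41a1, a magnesium carrier, changed by -0.72 (SE 0.11, adjusted p = 5.5e-05). The 12 not called, Slc26a6, Slc12a3, Slc12a1, Slc9b1, Slc4a2, Slc24a1, Slc4a3, Slc34a3, Slc8b1, Slc8a1, Slc12a9 and Slc20a1, lay between -0.30 and 0.46. The upper end was Slc20a1, a phosphate carrier whose null arrays were uneven (SD 0.34, adjusted p = 0.082).

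Carriers of zinc, other transition metals and heme held 17 expressed genes of 28, of which 3 were higher and 5 lower. The zinc exporters and importers of families Slc30 and Slc39 numbered 13, with 3 higher and 3 lower. Slc30a3, which fills synaptic vesicles with zinc, ran from 5.67 to 6.02 (median 5.85) on the wild-type arrays and stood at 6.63, 6.73, 6.41 and 6.50 on the null arrays, higher on every null array (0.73, SE 0.09, adjusted p = 4.4e-06). The zinc carriers Slc39a4 (0.42) and, with overlapping arrays, Slc39a13 (0.33) were higher, while Slc39a6, which takes up zinc, changed by -0.37 (SE 0.08, adjusted p = 0.00097). Slc39a9 (-0.30), the zinc exporter Slc30a1 (-0.25) and Slc31a2 (-0.44), of the copper carrier family, were lower with overlapping arrays. Slc39a6 was not called within array numbers 1 and 2 (-0.18, adjusted p = 0.31).

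Slc11a1, a proton-coupled metal carrier of phagosomes, was the case where the choice of probe mattered most in this class, and it is described in full after its values were seen. Its brighter probe changed by -0.40 (SE 0.12, adjusted p = 0.014) with overlapping arrays. Its dimmer probe ran from 5.98 to 6.66 (median 6.41) on the wild-type arrays and was below background on every null array, at least 1.77-fold lower (adjusted p = 2.6e-06). The same probe ran from 7.16 to 7.91 (median 7.46) on the Prdm4-EGFP arrays, above every wild-type array. The 9 metal carriers not called in null were Slc48a1, Slc39a11, Slc30a5, Slc31a1, Slc39a10, Slc30a6, Slc39a7, Slc30a7 and Slc30a2, between -0.14 and 0.23.

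Nucleotide sugar carriers, family Slc35, feed the glycosylation enzymes of the Golgi and endoplasmic reticulum. Of 27 genes 15 were expressed, with 2 higher and 4 lower in null. Slc35d2, a carrier of UDP-sugars, ran from 6.88 to 7.27 (median 7.04) on the wild-type arrays and stood at 6.29, 6.33, 6.24 and 6.30 on the null arrays, so that the null arrays were closely grouped and lower (-0.78, SE 0.08, adjusted p = 4.1e-07). Slc35c1, the GDP-fucose carrier, ran from 9.35 to 9.60 (median 9.49) on the wild-type arrays and stood at 8.83, 8.92, 8.80 and 8.77 on the null arrays, a change of -0.65 (SE 0.09, adjusted p = 2.5e-05) that its other probe shared in sign and call (-0.49). Slc35b2 (-0.60) and Slc35b3 (-0.32), which both carry the sulfate donor PAPS, fell as well. Slc35e3 (0.33) and Slc35a4 (0.19) were higher. The 9 not called, Slc35e2, Slc35a1, Slc35c2, Slc35b1, Slc35e1, Slc35a2, Slc35f2, Slc35b4 and Slc35a3, lay between -0.25 and 0.18. For Slc35a3 the brightest of 3 probes gave 0.18, another gave 0.25 and was called, and the last gave -0.03.

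Carriers of lipids and choline held 6 expressed genes of 11. Slc27a2, which takes up and activates long-chain fatty acids, was the second largest rise of all. It ran from 8.43 to 8.70 (median 8.48) on the wild-type arrays and stood at 9.85, 10.08, 9.74 and 9.78 on the null arrays. The log2 fold was 1.34 (SE 0.08, adjusted p = 1.1e-09), and its other probe gave 1.53. Its relatives Slc27a4 and Slc27a3 were not called, nor was Slc44a1, these 3 lying between -0.24 and 0.34. Among the choline-like carriers Slc44a2 rose by 0.21 (SE 0.07, adjusted p = 0.018) and Slc44a4 fell by 0.33 (SE 0.09, adjusted p = 0.0088). For Slc44a2 the brightest of 3 probes gave that value, another gave 0.54 and was called, and the last gave 0.25 and was not called. Slc44a4 was not called with median scaling (-0.24, adjusted p = 0.085), within either set of array numbers or without wild-type arrays 1, 5 and 6 (-0.14, adjusted p = 0.14).

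Slc66a2, a membrane protein with PQ-loop repeats from a family not placed in a class, was among the deepest falls. It ran from 10.10 to 10.32 (median 10.19) on the wild-type arrays and stood at 9.08, 9.06, 9.08 and 9.22 on the null arrays, with a change of -1.09 (SE 0.08, adjusted p = 1.6e-08). Its relative Slc66a1, which exports cationic amino acids from lysosomes, differed by -0.24 (SE 0.13, adjusted p = 0.15). A last 4 symbols name proteins that are not carriers. Of these Slc9a3r1, a scaffold with PDZ domains, was higher by 0.22 (SE 0.07, adjusted p = 0.014). That call did not hold in the deposited value table (0.13, adjusted p = 0.19) or without null array 4 (0.19, adjusted p = 0.052). Slc9a3r2, its relative, was uneven within wild-type, at 8.42, 7.42, 7.52, 6.57, 8.35 and 8.38 on arrays 1 to 6, the widest range of any of the 143 genes there (1.85). Arrays 1, 5 and 6 were high and array 4 was low, and the null arrays fell within that range. Slc4a1ap ran from 9.10 to 9.32 (median 9.17) on the wild-type arrays and stood at 9.26, 9.30, 9.19 and 9.31 on the null arrays, and neither it (0.06, SE 0.06, adjusted p = 0.45) nor Slc7a6os was called.

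Of the 143 genes 7 lie on chromosome 1, where the null arrays had 289 of 426 tested genes lower and 22 higher (median -0.40, or -0.38 with genes below background at their bounds). In Prdm4-EGFP against wild-type 8 of these 426 genes were lower and 7 higher (median -0.003). Among the 7 carriers 0 were higher and 4 were lower in null, namely Slc11a1, Slc30a1, Slc41a1 and Slc45a3, with a median of -0.25, or -0.15 with Slc45a3 at its bound. The part of that shift in their values was not tested. On the other chromosomes 35 of 136 carriers (25.7%) were higher and 28 (20.6%) lower, against 23.9 and 18.8% of all genes there. An earlier look at these data set wild-type arrays 1, 5 and 6 apart, and without them 31 carriers were higher and 33 lower in null. Within array numbers 1 and 2 the counts were 20 and 23, and within numbers 3 and above they were 26 and 26. These subsets hold fewer arrays, and the shares of all genes called in them were not counted.

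Setting the Prdm4-EGFP arrays against wild-type asks which carriers differ when tagged Prdm4 is expressed. Few carriers were called, namely 7 of 143 genes (4.90%, against 4.09% of all genes). Of these 2 were higher (1.40%, against 1.9% of all genes) and 5 lower (3.50%, against 2.19%). With median scaling 6 were higher and 2 lower, so the balance of directions depended on the scaling. That scaling moved the median over all 15356 probes in this comparison from 0.003 to 0.049, and the share of all genes called under it was not counted. The median log2 fold was -0.03 over the carriers and 0.00 over all genes. The groups did not overlap on 5 genes (3.50%, against 2.48%). None of the 25 mitochondrial, 15 nucleotide sugar, 17 metal, 13 organic ion or 6 lipid carriers was called.

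Slc9b2 and Slc66a2, which fell in null, were the 2 genes called higher in Prdm4-EGFP than in wild-type. Slc9b2 ran from 6.91 to 7.42 (median 7.30) on the Prdm4-EGFP arrays, all above the wild-type arrays, with a log2 fold of 0.74 (SE 0.11, adjusted p = 0.0016). Its other probe gave 0.54 and was called too. Slc66a2 ran from 10.40 to 10.88 (median 10.57) on the Prdm4-EGFP arrays and differed by 0.40 (SE 0.08, adjusted p = 0.0065). The same order of groups came from the dimmer probe of Slc11a1, with 1.14 (SE 0.15, adjusted p = 0.00037), while the brighter probe gave 0.24 (SE 0.11, adjusted p = 0.27). As both comparisons use the same wild-type arrays, their folds are not independent.

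Slc29a4, a carrier of monoamines in the plasma membrane, was the deepest fall in Prdm4-EGFP. It ran from 7.97 to 8.76 (median 8.26) on the wild-type arrays and from 7.46 to 7.80 (median 7.70) on the Prdm4-EGFP arrays, with no overlap and a change of -0.66 (SE 0.12, adjusted p = 0.0039). In null it stood at 8.14, 8.15, 8.16 and 8.33, within the wild-type range. Slc5a6, which takes up biotin and pantothenate with sodium, ran from 9.14 to 9.41 (median 9.21) on the wild-type arrays and from 8.69 to 9.08 (median 8.93) on the Prdm4-EGFP arrays. Its groups did not overlap (-0.33, SE 0.07, adjusted p = 0.014), and in null the difference was -0.03 (adjusted p = 0.82). Slc46a1, the folate carrier, ran from 7.22 to 7.50 (median 7.37) on the Prdm4-EGFP arrays and was lower than in wild-type by 0.39 (SE 0.09, adjusted p = 0.02), between the null and the wild-type arrays.

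Slc1a1 and Slc37a1 were called lower with overlapping arrays. Slc1a1 ran from 5.30 to 5.94 (median 5.41) on the Prdm4-EGFP arrays with 2 of 6 detected. As it passed the detection limit through the wild-type arrays, the fitted change of -0.64 (SE 0.14) is a description. Slc37a1 ran from 5.75 to 6.35 (median 6.03) on the Prdm4-EGFP arrays against 6.18 to 6.69 (median 6.41) on the wild-type arrays, a change of -0.38 (SE 0.10, adjusted p = 0.039) opposite in sign to that in null. Leaving out wild-type array 1, 3, 5 or 6, or Prdm4-EGFP array 1, 3, 4 or 6, ended the call of Slc37a1 (adjusted p from 0.058 to 0.095). Slc51a, which fell in null, ran from 5.76 to 6.42 (median 6.22) on the Prdm4-EGFP arrays and was not called (-0.54, SE 0.16, adjusted p = 0.063). Slc47a1 was not called by its brightest probe (-0.29, adjusted p = 0.098), and 1 of its other 2 probes was called (-0.35, adjusted p = 0.028). Median scaling ended the calls of Slc37a1, Slc46a1 and Slc5a6 (adjusted p = 0.10, 0.057 and 0.079), and leaving out wild-type arrays 1, 5 and 6 ended those of Slc1a1, Slc37a1, Slc46a1, Slc5a6 and Slc66a2 (adjusted p from 0.052 to 0.29). None of the 7 calls held within array numbers 1 and 2, where each group has 2 arrays, and 1 held within numbers 3 and above, that of Slc9b2.

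**Figure D3:**
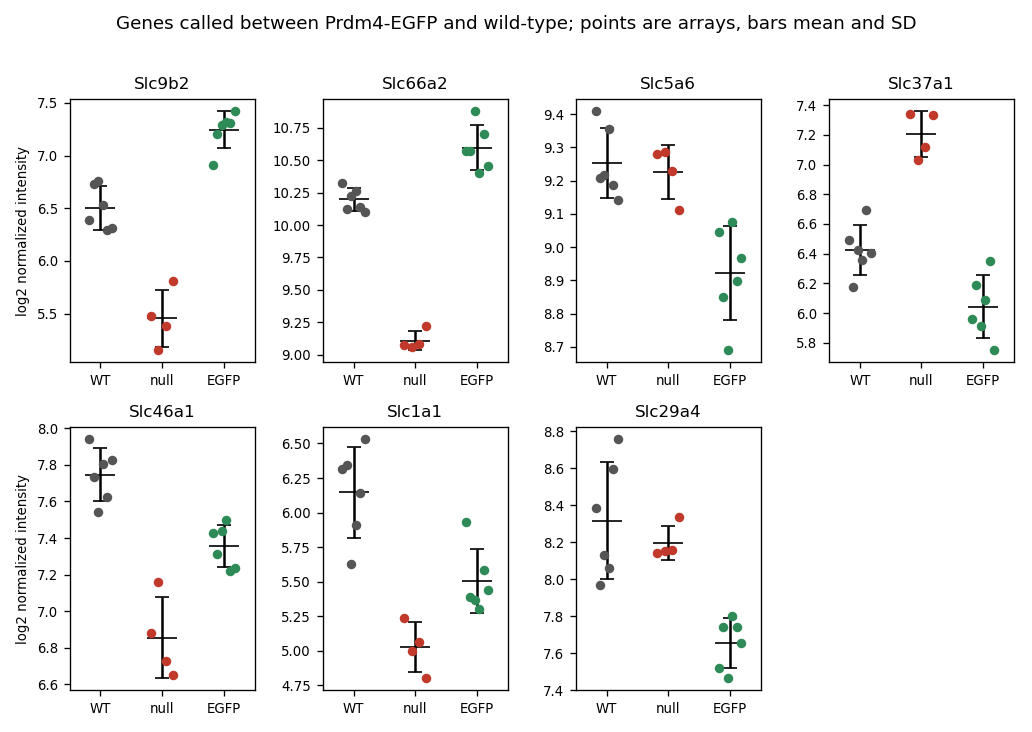
The 7 genes called between Prdm4-EGFP and wild-type are shown from the highest to the lowest fold, with points for arrays of the wild-type (WT, n = 6), Prdm4 null (n = 4) and Prdm4-EGFP (n = 6) groups, bars for mean and SD, and log2 normalized intensity on a separate vertical scale per gene. Slc9b2 and Slc66a2 are high in Prdm4-EGFP and low in null, Slc37a1 is the reverse, and Slc5a6 and Slc29a4 stand apart in Prdm4-EGFP.

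Between Prdm4-EGFP and null arrays 37 carriers were higher in Prdm4-EGFP and 38 lower. That was 52.4%, against 48.9% of all genes, with 25.9% higher against 23.6% and 26.6% lower against 25.2%. The groups did not overlap on 65 genes (45.5%, against 40.5%). By class, 9 amino acid carriers were higher in Prdm4-EGFP and 6 lower, 5 mitochondrial carriers higher and 7 lower, 3 vitamin and nucleoside carriers higher and 6 lower, and 1 carrier of the sugar families higher and 4 lower. The widest measured gaps were those of Slc29a3, with 1.81 (SE 0.11, adjusted p = 1.2e-09), and Slc9b2, with 1.79 (SE 0.13, adjusted p = 4.7e-09). Slc9b2 was detected on 1 of 4 null arrays, and its other probe, below background on all of them, was at least 1.73-fold higher. On the lower side stood Slc27a2, with -1.48 (SE 0.08, adjusted p = 2.8e-10), and Slc46a3, with -1.37 (SE 0.10, adjusted p = 6.3e-09). Slc51a was at least 1.49-fold and Slc32a1 at least 1.42-fold higher in Prdm4-EGFP, both being below background in null. Both passed the limit through the wild-type and Prdm4-EGFP arrays, so these gaps are descriptions. Of the 143 genes 56 were called in none of the 3 comparisons. The like count over all genes was not made, so that number is not a result about carriers.

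Several probes for 1 gene allow a check that does not rest on 1 sequence on the bead. In null against wild-type, 44 carriers had more than 1 probe past the detection limit. For 14 of them all probes were called in 1 direction, for 7 some were, for 21 none was, and for Slc6a6 and Slc6a15 they were called in opposite directions. Levels of different probes were not compared. The positions of the probes on the transcripts are not given in the sources used here.

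**Figure D4:**
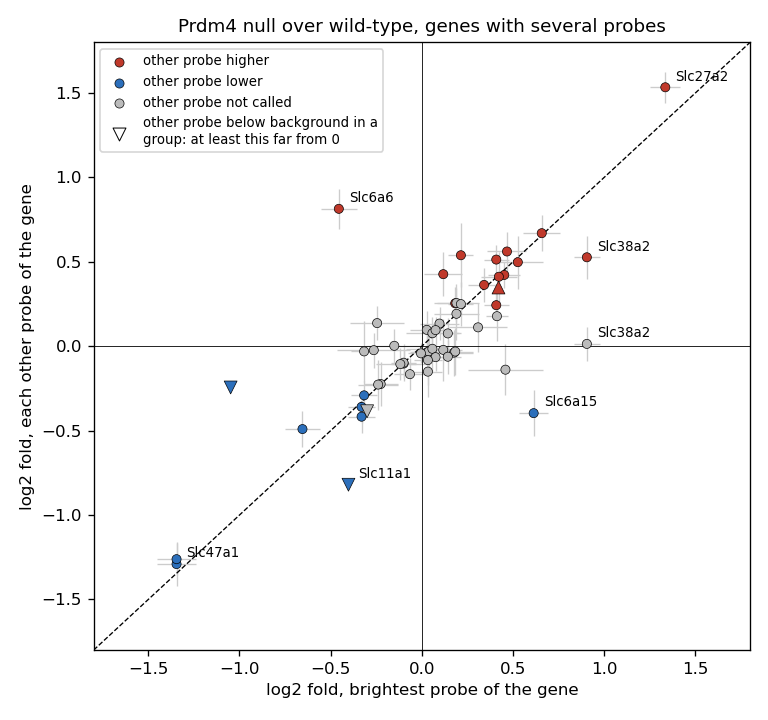
Each point is a further probe of a gene with several probes, with the log2 fold of Prdm4 null over wild-type for the brightest probe on the horizontal axis and for the further probe on the vertical axis, SE as bars, colour for the call of the further probe and a dashed line for equal folds, and 1 probe of Slc8a1 with no bound is left out. Slc27a2 and Slc47a1 lie near the line, triangles mark probes below background in a group at the least change the data allow (Slc11a1 among them), and Slc6a6 and Slc6a15 lie in the quadrants of opposite sign.

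Other transport genes, from lists outside the solute carrier names, were counted in the same fit. Of all tested genes 44.2% were called in null against wild-type (22.9% higher, 21.2% lower), and the counts of these short lists are descriptions. The sodium pump builds the gradient that many carriers use. Of 7 genes listed for it 3 were named on the array and tested, all of them beta subunits. In null Atp1b1 (-0.40, SE 0.15) and Atp1b2 were lower, and Atp1b3 (0.16, SE 0.07) was not called. Atp1b2 was below background on every null array and on 3 of 6 wild-type arrays, so that no fold is given. It passed the limit through the wild-type and Prdm4-EGFP arrays. Emb, a chaperone of monocarboxylate carriers, rose by 1.25 (SE 0.09, adjusted p = 1.0e-08). Pdzk1, a scaffold for apical carriers, was called higher too, but it was detected on 1 of 6 wild-type, 4 of 4 null and 0 of 6 Prdm4-EGFP arrays and so passed the limit through null. Of 10 ABC transporters tested, pumps driven by ATP, 3 were higher and 1 lower. Abcc4, which exports cyclic nucleotides and organic anions, rose by 1.65 (SE 0.09, adjusted p = 5.0e-10), and Abcb6, a porphyrin transporter, changed by -0.46 (SE 0.09). Of 2 organic anion transporting polypeptides tested Slco2b1 was below background on every null array and on 3 of 6 wild-type arrays, and at least 1.12-fold lower in null. It too passed the limit through the wild-type and Prdm4-EGFP arrays, so the fall is a description. In Prdm4-EGFP none of these 17 genes was called against wild-type, where 4.09% of all genes were.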

How the data were processed

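RNA of 16 ESC samples had been hybridized to Illumina Mouse WG-6 v2 arrays. The authors deposited bead summary intensities that were not normalized, with a detection p-value per probe and array, both per the file headers, and a second table of intensities after rank-invariant normalization, used as an alternative. The software that gave the detection p-value is not given in the sources used here. The non-normalized table was background corrected with the detection p-values, quantile normalized and taken to log2 with an offset of 16 (neqc, limma 3.58.1, R 4.3.3). Only probes detected (detection p-value below 0.01) in 4 or more arrays entered the fit. Group means were fitted over all 16 arrays with lmFit and eBayes, two-sided, with Benjamini-Hochberg adjustment over 15356 probes and a threshold of 0.05, and the fit was tested on simulated data. The probe of highest mean stood for a gene. Array numbers stand for samples only, and the number of arrays limits the precision.

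The members, substrate classes, lists and tests were chosen with earlier results of these data known. Classes follow the family number, and the class of non-carriers and that of unplaced families were made after the member names were seen. The named genes were 38, chosen by size of fitted change, by smallest p in a class, from a list of ESC carriers or for opposed probes, and other members fill in the classes. Alternatives were the deposited table, other scaling, offset, filter, probe choice, samples and blocks, and each array left out. Running them on Prdm4 as well was chosen after seeing the data. The null arrays are of a deletion allele, and the values are of RNA, not of protein or transport.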

Additional observations from a re-analysis of the deposited data

Results flagged for a closer look

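In 5 of 114 groups of arrays tested for the 38 named genes, 1 array lay farther from the rest of its group than Dixon's limit at the 95% level allows, where chance gives about 1 in 20. Null array 4 was the one in 3 of them. Slc29a4 stood at 8.335 there against 8.144 to 8.16 on the other null arrays, Slc32a1 at 5.02 against 4.745 to 4.767, below background on all 4, and Slc66a2 at 9.222 against 9.059 to 9.078. In Prdm4-EGFP, Slc25a16 stood at 8.179 on array 5 against 8.342 to 8.411, and Slc30a3 at 5.41 on array 3 against 5.728 to 5.822. Leaving out null array 4 kept the calls of Slc32a1 and Slc66a2 in null against wild-type.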

How the results depend on the processing

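Over 29 alternatives, 73 results of named genes gave 2099 checks, of which 1981 kept direction and call, 114 kept the direction only and 4 reversed. Of the calls 31 of 67 in null against wild-type, 0 of 7 in Prdm4-EGFP against wild-type and 31 of 75 in Prdm4-EGFP against null held in all 28 alternatives other than the stricter threshold, a gene not tested being counted as held. The 4 reversals came from taking the probe of lowest mean, for Slc6a15 (-0.3964 in null against wild-type, 0.745 in Prdm4-EGFP against null) and Slc6a6 (0.8141 and -0.9512). Prdm4 stayed lower and called in null in every alternative, between -0.72 and -0.58.

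The carriers higher in null numbered 20 within array numbers 1 and 2 and 17 at an adjusted p under 0.001, and the lower carriers 20 at that threshold. Carriers higher in Prdm4-EGFP than wild-type numbered 6 with median scaling, 1 when probes had to be detected on all 16 arrays, 0 within numbers 1 and 2, 1 within numbers 3 and above, 4 without wild-type arrays 1, 5 and 6 and 0 at 0.001. The lower carriers numbered 2, 0 within numbers 1 and 2, 0 within numbers 3 and above, 1 without those wild-type arrays and 0 at 0.001. Against null, the higher carriers in Prdm4-EGFP numbered 19 within numbers 1 and 2 and 20 at 0.001, and the lower 20 and 23. Leaving out each array gave 30 to 36 higher and 28 to 37 lower in null, 2 to 4 higher (4 without wild-type array 6) and 4 to 7 lower in Prdm4-EGFP against wild-type, and 31 to 39 higher and 30 to 40 lower against null. The shares of all genes called in the alternatives were not counted, so these counts describe the carriers only.

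Same-numbered arrays of different groups deviated together only weakly (mean r 0.103, 7 of 14 pairs over 0.1), and 5 of 16 arrays correlated best with their own number, so the pairing was not taken as given. With the replicate number as a block the counts were 35 and 32 in null, 4 and 6 in Prdm4-EGFP against wild-type, and 34 and 38 against null. Scaling moved the median over all probes by under 0.1. Signals near background limit the dim carriers, 9 of which were below background on every array of a group, and the cause of the changes above was not tested.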
